A study of Mus musculus with 7 samples.

Results

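F-box proteins are the subunits that pick the target in SCF ubiquitin ligases, and 76 of the 22877 genes in the expression table of *Mfn1*-/- and WT mouse oocytes carried an F-box gene symbol. Members were taken by symbol, as Fbxl, Fbxo or Fbxw followed by a number and at most 1 letter. The 16 genes from *Fbxw13* to *Fbxw28* were treated as a family apart, and the other 60 comprised 17 Fbxl, 35 Fbxo and 8 Fbxw genes. The oocytes came from secondary follicles of 8-week-old C57BL/6J mice, in which *Mfn1*, a mitochondrial fusion gene, had been deleted by crossing floxed mice to mice with a Cre transgene driven by the oocyte promoter Zp3 (*Mfn1*-/-, 3 libraries) or was intact (WT, 4 libraries). Each library was made from 5 oocytes pooled before Smart-Seq2 amplification of the cDNA. Whether the WT mice carried the floxed allele or the Cre is not given in the sources used here. The paper found more secondary follicles of the earliest type, and few of the most layered type, in *Mfn1*-/- ovaries. Matching of the collected follicles for stage is not described in the sources used here, so follicle stage and genotype cannot be told apart.

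An SCF ligase is built from the scaffold CUL1, the adaptor SKP1, a RING protein that recruits the ubiquitin-conjugating enzyme, and 1 exchangeable F-box protein. The F-box binds SKP1, and the rest of the protein binds the substrate, by WD40 repeats in the Fbxw class, leucine-rich repeats in the Fbxl class and various other domains in the Fbxo class. In oocytes, F-box proteins are known above all through *Fbxo5* and *Fbxo43* (Emi1 and Emi2), which inhibit the anaphase-promoting complex (APC/C). The *Fbxw13* to *Fbxw28* genes, except *Fbxw17*, arose by tandem duplication in the mouse. They are known for transcripts in the oocyte and have few assigned substrates.

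The values are the authors' mean normalized counts for each genotype, and no value of a single library was used. The spread between libraries was therefore unknown, no test could be made, and a difference between the means cannot be set against replicate error. Each difference is given as the log2 ratio of the *Mfn1*-/- mean over the WT mean, with 0.1 added to both, and "past 2-fold" is a description of size, not a statistical call. Of all 22877 genes, 7.65% were past 2-fold, 4.89% with the *Mfn1*-/- mean higher and 2.76% with it lower. Means across all genes were slightly higher in *Mfn1*-/- oocytes, where the median log2 ratio was 0.16 for the 6226 genes that averaged 1 or more over the 7 libraries (expressed genes), so a member's ratio can also be read against 0.16. Depth per library was unknown, and in pooled oocytes, less RNA per cell and fewer intact cells cannot be told apart.

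The targeted gene *Mfn1* had a mean of 0.0577 in *Mfn1*-/- oocytes and 0.616 in WT oocytes, a log2 ratio of -2.18. All 14 listed oocyte markers had a row, with means from 0.679 (*Kit*) to 1310 in *Mfn1*-/- and from 0.922 to 1120 in WT oocytes. In *Mfn1*-/- oocytes 9 of them were higher and 5 lower (7 and 7 relative to the median of the expressed genes). Their log2 ratios ran from -0.39 (*Kit*) to 0.90 (*Figla*, 34.9 and 18.7). Of 14 granulosa cell markers, 12 had a row, and their means summed to 3.24 in *Mfn1*-/- oocytes and 3.53 in WT. The defining granulosa markers *Fshr* (0.016 and 0.0171) and *Amh* (0.0349 and 0.02) were near the lowest mean of 0.01 that the table holds. Of the 12, 3 were higher and 9 lower in *Mfn1*-/- oocytes, with *Hsd17b1* at 0.0412 and 0.152 and *Cyp19a1* at 0.0846 and 0.193. *Inha* (1.87 and 0.954) and *Esr2* (0.929 and 1.86) made up most of both sums. The part of granulosa cell RNA in the F-box values was not tested. Of 6 theca and stroma markers 3 had a row, with sums of 0.0654 and 0.058, and of 5 blood and vessel markers *Pecam1* alone had one (0.168 and 0.188).

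Of the 16 genes called tandem here by their symbols, 15 lie in 1 cluster on chromosome 9. The cluster, chr9:109139447-109790670 in GRCm38, spans 651 kb with every gene on the minus strand. *Fbxw17* lies apart, at chr13:50417864-50433780. The coding sequences of 14 protein-coding cluster genes were 79.1% to 99.1% identical between pairs (median 84.0%, 91 pairs), whereas those of *Fbxw17* were 47.8% to 49.9% identical to them. Their coding lengths ranged from 1392 to 1407 bases. *Fbxw14* and *Fbxw28* were the most alike, at 99.1%.

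**Figure D1:**
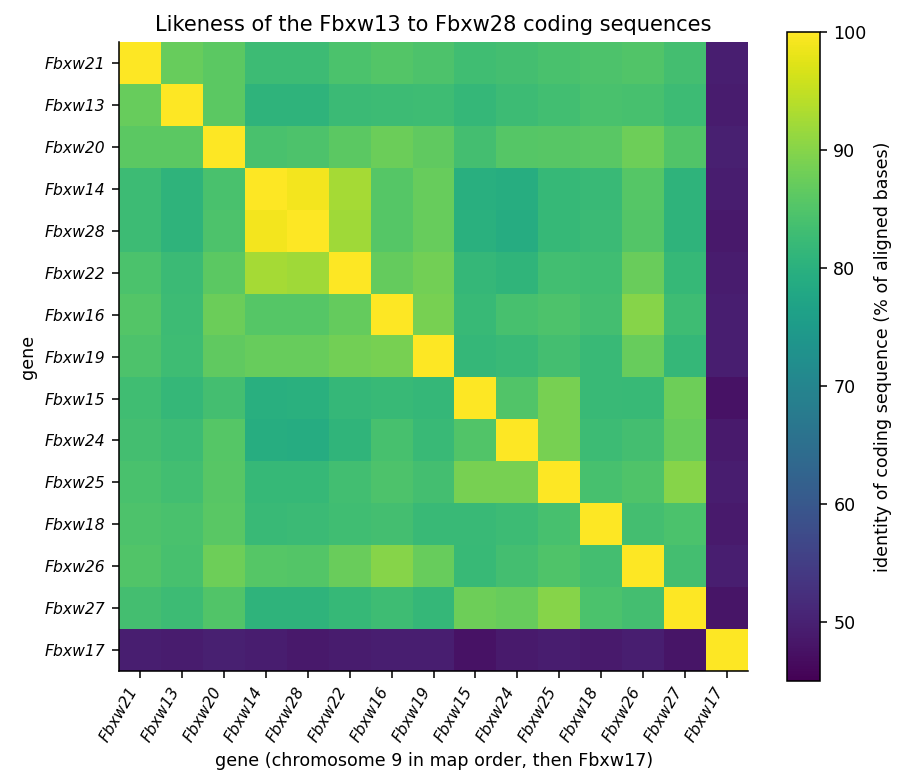
Identity of the coding sequences of 14 chromosome 9 genes and *Fbxw17*, as the percentage of aligned bases, with genes in map order on both axes and *Fbxw17* last. The cluster genes share at least 79.1% with each other, and *Fbxw17* stands out at under 50% with all of them.

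The cluster is also alike just upstream of its genes. The 250 bases before the RefSeq start of 6 cluster genes are shown, because these genes cover the highest mean (*Fbxw24*), a near-identical pair partner (*Fbxw14*) and the 4 genes with the lowest log2 ratios. They lie on the minus strand of GRCm38.p6, at chr9:109626060-109626309 (*Fbxw24*), chr9:109287677-109287926 (*Fbxw14*), chr9:109449141-109449390 (*Fbxw16*), chr9:109702701-109702950 (*Fbxw18*), chr9:109664653-109664902 (*Fbxw25*) and chr9:109543190-109543439 (*Fbxw23*). Capitals mark CAGCTG, a form of the E-box read by basic helix-loop-helix factors, and TTTAAA, an AT-rich run.
Fbxw24: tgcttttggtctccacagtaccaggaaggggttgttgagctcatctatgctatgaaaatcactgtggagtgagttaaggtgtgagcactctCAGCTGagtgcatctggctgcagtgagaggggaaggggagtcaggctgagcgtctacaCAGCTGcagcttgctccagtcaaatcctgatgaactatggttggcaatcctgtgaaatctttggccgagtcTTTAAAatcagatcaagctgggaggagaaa
Fbxw14: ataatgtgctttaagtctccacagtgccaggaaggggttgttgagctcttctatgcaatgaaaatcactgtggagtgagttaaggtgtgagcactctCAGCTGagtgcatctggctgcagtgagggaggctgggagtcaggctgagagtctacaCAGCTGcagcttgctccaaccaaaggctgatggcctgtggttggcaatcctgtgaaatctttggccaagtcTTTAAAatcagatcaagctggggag
Fbxw16: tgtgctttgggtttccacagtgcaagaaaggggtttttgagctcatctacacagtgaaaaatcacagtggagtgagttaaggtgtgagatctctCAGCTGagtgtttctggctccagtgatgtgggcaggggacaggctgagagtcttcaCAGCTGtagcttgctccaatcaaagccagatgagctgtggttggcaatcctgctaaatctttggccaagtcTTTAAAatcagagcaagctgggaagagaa
Fbxw18: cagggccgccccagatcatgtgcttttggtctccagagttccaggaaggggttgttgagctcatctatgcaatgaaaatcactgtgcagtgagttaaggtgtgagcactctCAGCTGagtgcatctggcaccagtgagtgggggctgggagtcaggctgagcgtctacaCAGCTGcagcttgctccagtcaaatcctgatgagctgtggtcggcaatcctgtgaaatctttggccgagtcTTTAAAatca
Fbxw25: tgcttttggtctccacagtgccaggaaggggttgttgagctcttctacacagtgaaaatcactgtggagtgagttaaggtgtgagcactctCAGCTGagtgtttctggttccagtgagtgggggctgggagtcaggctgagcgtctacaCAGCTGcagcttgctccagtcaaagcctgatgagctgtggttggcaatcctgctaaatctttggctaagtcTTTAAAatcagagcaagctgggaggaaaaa
Fbxw23: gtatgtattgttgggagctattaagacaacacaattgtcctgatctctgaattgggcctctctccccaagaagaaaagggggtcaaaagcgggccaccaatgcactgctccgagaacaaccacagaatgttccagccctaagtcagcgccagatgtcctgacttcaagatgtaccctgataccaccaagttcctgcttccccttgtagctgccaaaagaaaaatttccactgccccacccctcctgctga

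RefSeq promoter sequences matched 12 of the 15 cluster genes and *Fbxw17*. Without *Fbxw23*, the cluster promoters were 81.7% to 97.2% identical between pairs (median 90.8%, 11 genes, 55 pairs). Pairs that included *Fbxw17* or *Fbxw23* were 33.8% to 48.7% identical. The RefSeq start used for *Fbxw23*, next to chr9:109543190, lies upstream of its GENCODE start at chr9:109534858. Whether the unlike sequence of *Fbxw23* reflects the start used was not tested. CAGCTG was found in 11 of the 12 cluster promoters and at least 2 times in 10 of them, against 13% and 1.26% of the 32851 promoters in the table, and in 8 of 44 promoters of other F-box genes. TTTAAA was found in 10 of the 12, against 12.1% of all promoters and 7 of the 44. *Fbxw23* had neither run of letters, and *Fbxw20* had 1 CAGCTG and no TTTAAA. The NOBOX element TAATTG, named for an oocyte factor, was in none of the 12 (7.17% of all, 2 of the 44), and CCAAT was in 2 of the 12 (33.8% of all, 11 of the 44). Both strands were searched. CAGCTG and TTTAAA read the same on both, and the other strand of TAATTG can share letters with CCAAT. The motifs were chosen with the promoters in view, and promoters copied with their genes are not separate observations.

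The tandem family was abundant as a group in both genotypes. The 16 means summed to 1089.57 in *Mfn1*-/- oocytes and 1063.44 in WT (ratio 1.02), or 0.764% and 0.817% of the sum of all means. The 60 other F-box genes together reached 107.542 and 122.222. The table does not name the scale of its counts. Levels of different genes were compared per kilobase of transcript, which corrects for length again if the counts were already corrected for it. On that scale 9 of the 15 cluster genes lay above *Fbxl6*, the highest of the other F-box genes (22.8 per kb in WT and 20.1 in *Mfn1*-/- oocytes), in each genotype.

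Within the cluster, the level per kilobase differed far more between genes than between genotypes. In WT oocytes it ran from 3.87 (*Fbxw25*) to 120 (*Fbxw24*), and in *Mfn1*-/- oocytes from 1.84 to 132 for the same genes. The mean normalized counts of the 15 genes kept nearly the same order in both genotypes (Spearman's rho 0.98 across genes, which share libraries and are not independent). At the top, *Fbxw24* had a mean of 197 in *Mfn1*-/- oocytes and 178 in WT. *Fbxw15* followed in WT oocytes, with 165 against 145 in *Mfn1*-/- oocytes. *Fbxw28* had 172 in *Mfn1*-/- oocytes and 145 in WT, and *Fbxw14* had 153 and 126. These 4 genes form 2 adjacent pairs on the map, *Fbxw14* with *Fbxw28* and *Fbxw15* with *Fbxw24*. Which neighbours in this order differ beyond their spread cannot be said.

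Both directions were present in the family, as among all 22877 genes, of which 12973 were higher in *Mfn1*-/- oocytes and 9810 lower. Of the 6226 expressed genes, 4069 were higher and 2130 lower. The *Mfn1*-/- mean was higher for 9 tandem genes, lower for 6 and equal for 1 (*Fbxw20*, 53.4 in both), but once the median of the expressed genes was taken off 7 were above 0 and 9 below. The median log2 ratio was 0.12 (range -1.19 to 0.55). The highest ratio was that of *Fbxw17*, and the median was 0.087 without this gene, a choice made after seeing the data. All 16 genes averaged at least 1, and the median over expressed genes was 0.16, against 0.037 over all genes. Past 2-fold were 2 of 16 (12.5%, against 7.65% of all genes and 8.74% of expressed genes), both with the lower mean in *Mfn1*-/- oocytes (3.24% of expressed genes were past 2-fold in that direction).

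**Figure D2:**
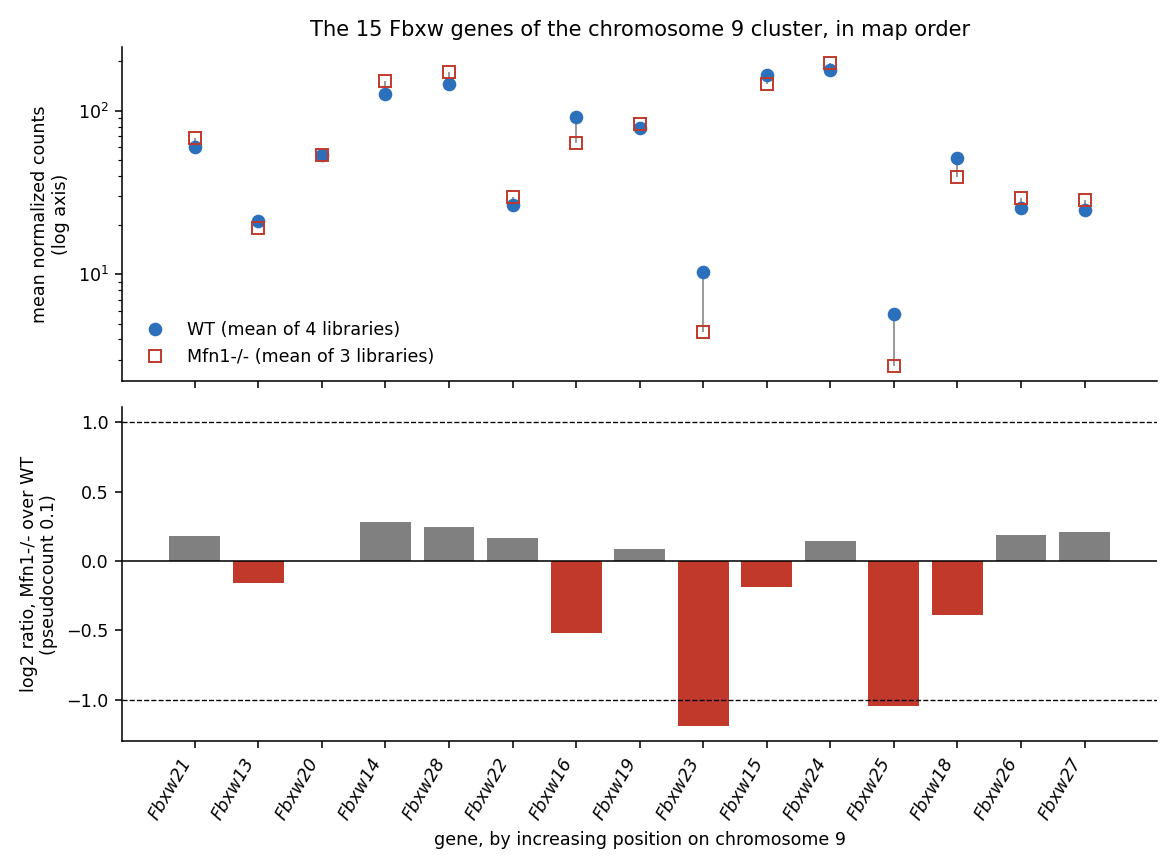
Top, the authors' mean normalized counts (log axis) of the 15 chromosome 9 genes in map order, with WT as filled circles and *Mfn1*-/- as open squares; bottom, the log2 ratio of the *Mfn1*-/- mean over the WT mean, with dashed lines at 2-fold. No error bars can be drawn from genotype means, and only *Fbxw23* and *Fbxw25* pass a dashed line.

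*Fbxw23* had a mean of 4.46 in *Mfn1*-/- oocytes and 10.3 in WT, a log2 ratio of -1.19. GENCODE lists it as a transcribed unprocessed pseudogene and RefSeq as protein coding, and the RefSeq start used for its promoter lies upstream of the GENCODE start. *Fbxw25* had 2.74 and 5.76, a log2 ratio of -1.05. These were the cluster genes with the lowest means, so their ratios rest on less signal than those of their neighbours.

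*Fbxw16* had a mean of 63.8 in *Mfn1*-/- oocytes and 91.6 in WT, a log2 ratio of -0.52. *Fbxw18* had 39.1 and 51.1, a log2 ratio of -0.39. Both lie well above the level of *Fbxw23* and *Fbxw25*. These 4 genes were grouped after their values were seen, by a log2 ratio under -0.3. They summed to 110.1 in *Mfn1*-/- oocytes and 158.76 in WT, or 10.1% and 14.9% of the family's total. The remaining 12 genes summed to 979.47 and 904.68. The lower sum and share of the 4 in *Mfn1*-/- oocytes follow from how they were chosen.

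The 4 genes are not neighbours as a block: *Fbxw25* and *Fbxw18* adjoin each other, whereas *Fbxw16* and *Fbxw23* are each set among genes with other ratios. *Fbxw19*, which lies between *Fbxw16* and *Fbxw23*, had 83.2 in *Mfn1*-/- oocytes and 78.3 in WT (log2 ratio 0.087). *Fbxw15*, on the far side of *Fbxw23*, had a log2 ratio of -0.19. *Fbxw24*, between *Fbxw15* and *Fbxw25*, had 0.15. Both *Fbxw19* and *Fbxw24* lay below 0 once the median of the expressed genes was taken off (-0.072 and -0.013).

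Close copies in sequence had like ratios in some pairs and less like ones in others, with no spread known. The closest coding pair, *Fbxw14* and *Fbxw28* (99.1%), had log2 ratios of 0.28 and 0.25, though their reads are hard to tell apart. *Fbxw22*, 92.6% identical to *Fbxw14*, had 0.16. *Fbxw16* and *Fbxw26* share 90.0% of their coding sequence, and their log2 ratios were -0.52 and 0.19. *Fbxw25* and *Fbxw27* share 89.9%, and their ratios were -1.05 and 0.21. The promoters of *Fbxw18* and *Fbxw26* were 95.7% identical, with ratios of -0.39 and 0.19, and those of *Fbxw15* and *Fbxw25* were 94.4% identical, with -0.19 and -1.05. Over the 91 coding pairs, the absolute difference in log2 ratio and the identity had a Spearman's rho of 0.032, as a description of pairs that share genes.

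The other cluster genes had smaller ratios. *Fbxw21* had 67.8 in *Mfn1*-/- oocytes and 59.9 in WT (log2 ratio 0.18), and *Fbxw13* had 19.1 and 21.3 (-0.16). *Fbxw22* had 29.6 and 26.4 (0.16). The last genes of the cluster, *Fbxw26* (29.2 and 25.6, 0.19) and *Fbxw27* (28.4 and 24.6, 0.21), were close in level and in ratio. *Fbxw17*, outside the cluster, had the lowest means of the family, 1.77 and 1.18 (log2 ratio 0.55).

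Reads from near-identical copies can be assigned to either. Of the 75-base windows of the *Fbxw28* transcript, 54.2% occur elsewhere in the transcripts, and *Fbxw14* shares 52.9% of its windows, so the split between this pair is uncertain. Their sum was 325 in *Mfn1*-/- oocytes and 271 in WT, a log2 ratio of 0.26. The share of windows found elsewhere was 11.9% for *Fbxw16*, 10.8% for *Fbxw15*, 3.39% for *Fbxw18*, 1.60% for *Fbxw23* and 0.071% for *Fbxw25*. Most of the share of *Fbxw16* (9.91%) was with *Gm42494*, and most of that of *Fbxw15* (6.69%) was with *Gm42756*. These 2 are overlapping genes on the opposite strand and not copies. *Gm42494* (4.33 and 4.06) overlaps 14% of the *Fbxw16* transcript, and *Gm42756* (0.564 and 0.56) overlaps 11.2% of the *Fbxw15* transcript. Their part in the ratios was not tested.

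Most of the 60 other F-box genes were low: 13 had a mean under 0.1, 28 from 0.1 to 1, 17 from 1 to 10 and 2 of at least 10. The *Mfn1*-/- mean was higher for 33 and lower for 27, beside 12973 and 9810 of all 22877 genes. These counts became 25 and 35 of the 60 once the median of the expressed genes was taken off. Past 2-fold were 4 of 60 (6.67%, against 7.65% of all genes), 2 in each direction, and the median log2 ratio was 0.061. For the 19 expressed ones the median was -0.18, beside 0.16 for all expressed genes. Of these, 8 were higher and 11 lower, beside 4069 and 2130 of all expressed genes. Of these 19, 1 was past 2-fold with the higher mean (5.49% of expressed genes) and 2 with the lower mean (3.24%). By class, the median was 0.27 for Fbxl (12 of 17 higher, 10 once the median of the expressed genes was taken off), -0.013 for Fbxo (16 of 35 higher, 10 once it was taken off) and 0.22 for the 8 other Fbxw genes (5 higher either way).

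**Figure D3:**
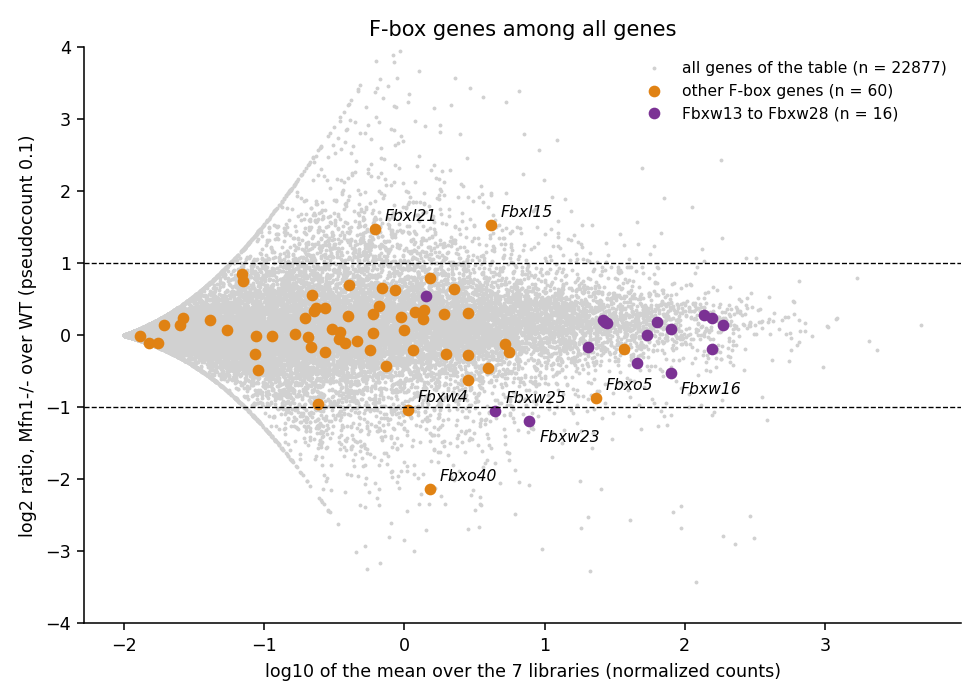
Log2 ratio of the *Mfn1*-/- mean over the WT mean against the log10 of the mean over the 7 libraries for all 22877 genes (grey), the tandem family (purple) and the other F-box genes (orange), with dashed lines at 2-fold. The axis stops at 4 in each direction, which leaves out 11 genes and no F-box gene; of the F-box genes, 2 lie above the upper line and 4 below the lower one.

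The inhibitors of the APC/C were both lower in *Mfn1*-/- oocytes. *Fbxo5* (chr10:5799160-5805600) had a mean of 15.8 in *Mfn1*-/- oocytes and 29 in WT, a log2 ratio of -0.87. It was the second most abundant of the 60 by mean normalized count. *Fbxo43* (chr15:36150060-36164884) had 2.14 and 3.35, a log2 ratio of -0.62. Neither was past 2-fold, but *Fbxo5* was, at -1.03, once the median of the expressed genes was taken off. No exon of another gene overlapped *Fbxo5*.

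*Fbxo40*, known for turning over an insulin signalling adaptor in muscle, had the lowest log2 ratio of all F-box genes. It averaged 0.453 in *Mfn1*-/- oocytes and 2.32 in WT, a log2 ratio of -2.13. It lies at chr16:36963460-36990467 with no overlapping exon of another gene. *Fbxw4*, the gene disrupted in the mouse limb mutant dactylaplasia, had 0.626 and 1.39, a log2 ratio of -1.04 (-0.56, and no longer past 2-fold, with a pseudocount of 1). It lies at chr19:45578254-45660312. *Gm17018* (10.3 and 11) overlaps 32.7% of the *Fbxw4* transcript, and its part in that value was not tested.

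In the other direction, *Fbxl15*, which targets the ubiquitin ligase SMURF1, had a mean of 6.67 in *Mfn1*-/- oocytes and 2.24 in WT, a log2 ratio of 1.53. It lies at chr19:46328184-46330446, and *Cuedc2* overlaps 25.6% of its transcript on the opposite strand. *Cuedc2* had 0.546 and 0.209, a log2 ratio of 1.06. Whether the counting used strand is not given in the sources used here, so reads in the overlap cannot be told apart.

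*Fbxl21* (chr13:56522472-56537898), a gene of the circadian clock that acts on cryptochromes, had 1.03 in *Mfn1*-/- oocytes and 0.307 in WT, a log2 ratio of 1.47. With a pseudocount of 1, *Fbxl21* was at 0.64 and no longer past 2-fold. Of the cryptochromes, *Cry1* had 0.618 and 0.76, and *Cry2* had 0.0386 and 0.0305.

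Among F-box genes tied to mitochondria or to iron, *Fbxo7*, which works with Parkin in mitophagy, had 2.04 in *Mfn1*-/- oocytes and 1.13 in WT, a log2 ratio of 0.80. *A230060F14Rik* (0.882 and 0.333, log2 ratio 1.18) overlaps 3.21% of its transcript. *Fbxl4*, needed to keep mitochondrial DNA, had 0.196 and 0.232 (-0.17). *Fbxl5*, the iron sensor that targets iron regulatory proteins, had 1.59 and 1.22 (0.36).

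Some well known F-box genes had means under 0.1. *Fbxw7*, which targets cyclin E and MYC, had 0.0532 in *Mfn1*-/- oocytes and 0.0323 in WT, and *Fbxw11*, a beta-TrCP gene, had 0.0864 and 0.0875. At these levels a difference was not readable. *Fbxl6*, with the highest mean of the 60, had 34.3 and 39, a log2 ratio of -0.18. It lies at chr15:76535721-76538746. *Fbxo28* had 5.04 and 5.96 (-0.24), *Fbxo30* had 4.95 and 5.4 (-0.12), *Fbxl22*, known from the muscle sarcomere, had 3.23 and 4.48 (-0.46), and *Fbxo34* had 1.78 and 2.16 (-0.27).

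The members on either side of the 2-fold line show how it cuts. Just inside were *Fbxw4* at -1.04 and *Fbxl21* at 1.47. Just outside were *Fbxo17*, of the sugar-binding F-box group, at -0.95 (0.123 in *Mfn1*-/- oocytes and 0.332 in WT), and *Fbxo6*, of the same group, at 0.85 (0.127 and 0.0263). *Fbxo39* was at 0.76 (0.122 and 0.0314). Both means of *Fbxo6* and *Fbxo39* and the *Mfn1*-/- mean of *Fbxo17* were close to or under the pseudocount, and all 3 genes were past 2-fold with a pseudocount of 0.01.

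**Figure D4:**
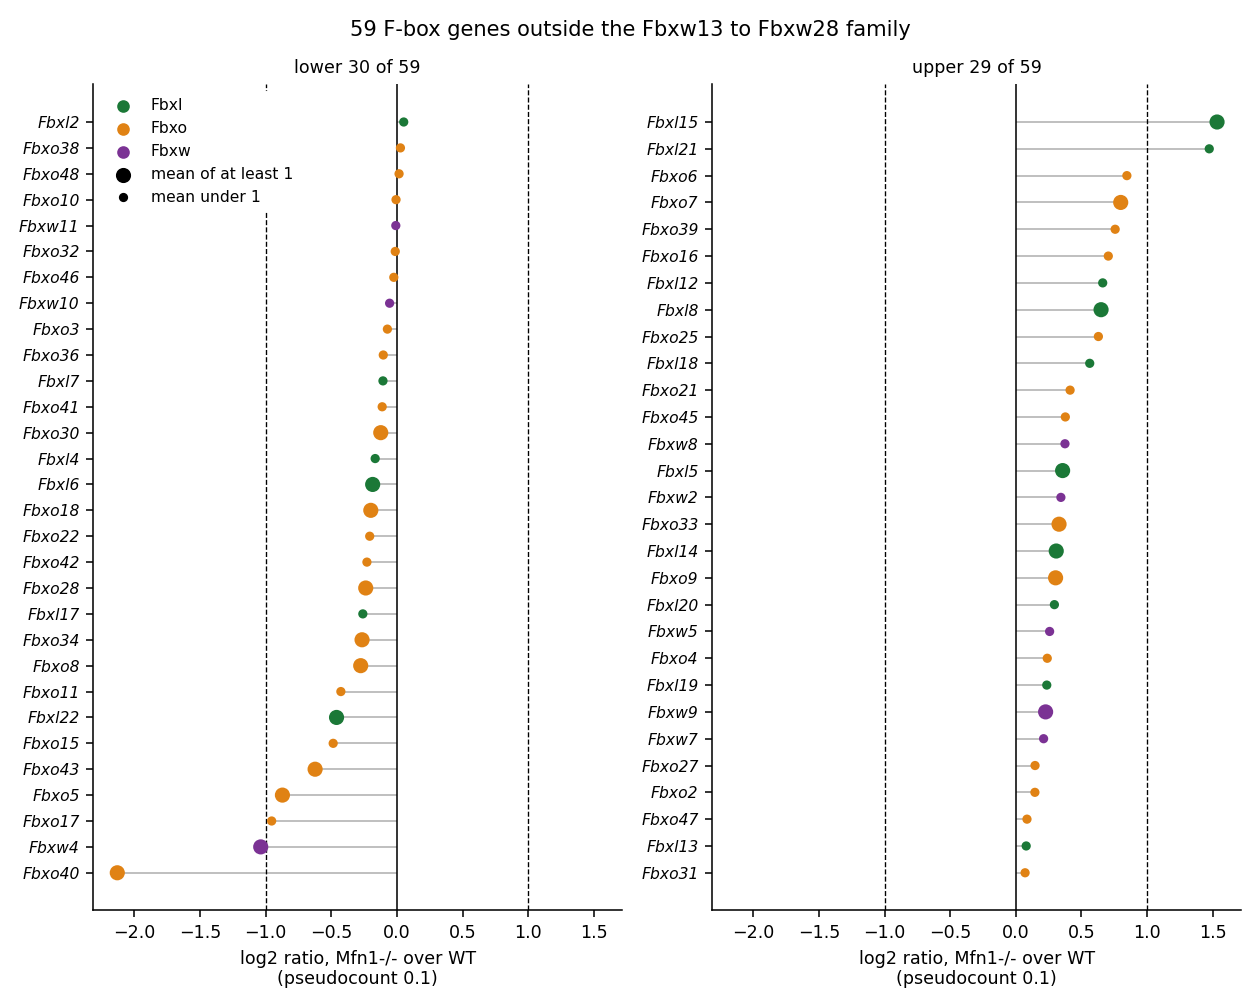
Log2 ratio of the *Mfn1*-/- mean over the WT mean for 59 F-box genes outside the tandem family, in order, with the lower 30 on the left and the upper 29 on the right; colours mark the class, large points a mean of at least 1 and dashed lines 2-fold. *Fbxo40* and *Fbxw4* lie past the left line and *Fbxl15* and *Fbxl21* past the right line.

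Genes for partners of F-box proteins were taken next. All 4 genes of the SCF core were below 2-fold: *Skp1a*, the adaptor, had 150 in *Mfn1*-/- oocytes and 164 in WT, *Rbx1*, the RING subunit, had 29.1 and 26.5, and *Cul1*, the scaffold, had 12.5 and 10.9. *Rnf7*, the second RING subunit, had 8.15 and 4.83, a log2 ratio of 0.74. Among 8 genes for E1 and E2 enzymes, 3 were higher and 5 lower, with *Ube2d3* at 28.5 and 33.8 and *Cdc34* at 11.5 and 11.7. Of 12 genes for neddylation, which switches cullins on, and for the exchange of F-box proteins, 7 were higher and 5 lower (4 and 8 relative to the median of the expressed genes). *Nedd8* had 25.5 and 20.1, and *Nae1* had 12.3 and 12.

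Of the 9 genes of the COP9 signalosome, which takes NEDD8 off cullins, 8 were higher in *Mfn1*-/- oocytes, and 7 lay above the median of the expressed genes. The median log2 ratio was 0.29, beside 0.16 for expressed genes. *Cops6* had 52.6 in *Mfn1*-/- oocytes and 42.3 in WT, and *Gps1* had 25 and 20.2. None of the 9 was past 2-fold. F-box genes under other names, 6 of 8 with a row, were low and were split 3 and 3, with all 6 under the median of the expressed genes. *Btrc* had 1.27 and 1.19, and *Ccnf*, cyclin F, had 0.767 and 0.731.

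The APC/C is the complex that *Fbxo5* and *Fbxo43* inhibit. Of 18 genes for its subunits, activators and E2 enzymes, 13 were higher and 5 lower (8 and 10 relative to the median of the expressed genes). Their median log2 ratio was 0.065, and none was past 2-fold. The E2 gene *Ube2c* had 43.5 in *Mfn1*-/- oocytes and 33.4 in WT, and *Ube2s*, also an E2 gene, had 18.1 and 21.3. Of 20 known SCF substrates, 19 had a row, 13 were higher and 6 lower (9 and 10 relative to that median), and 2 were past 2-fold (10.5%, against 7.65% of all genes). *Ccne1*, cyclin E1, had 3.61 and 1.66, and *Mcl1*, a survival factor of the BCL2 family, had 3.57 and 1.64, each with a log2 ratio of 1.08. Both were under 2-fold once the median of the expressed genes was taken off. The most abundant substrates, *Nfkbia* (38.1 and 26.1) and *Ccne2* (3.62 and 4.42), were not past 2-fold. These are mRNA values, whereas SCF ligases act on the proteins, whose levels are not part of these data.

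**Figure D5:**
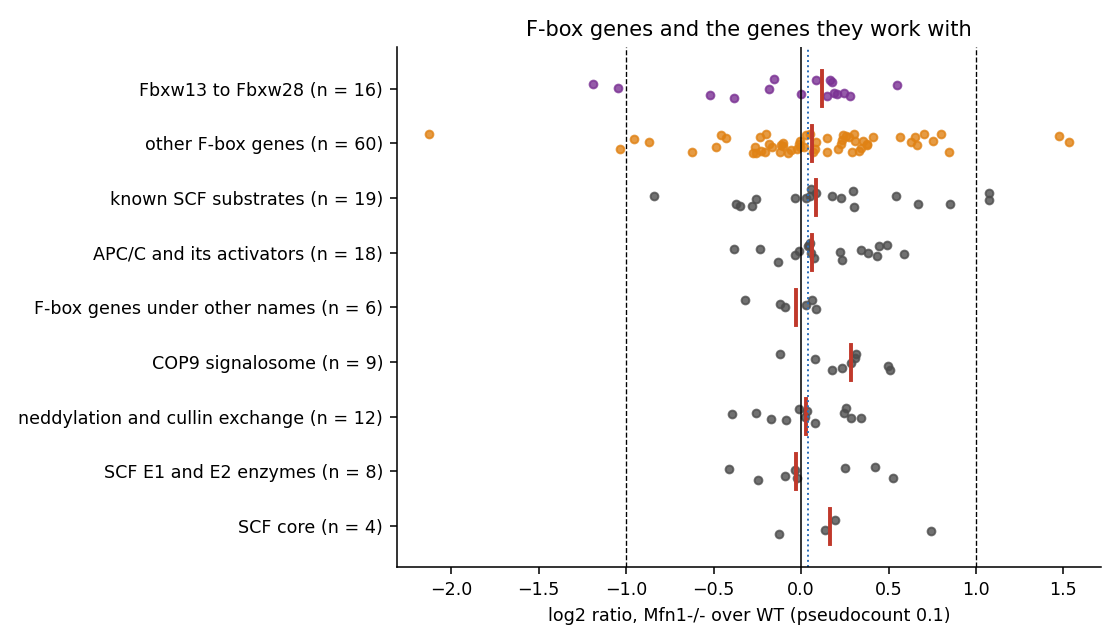
Log2 ratio of the *Mfn1*-/- mean over the WT mean for each gene of the SCF and APC/C lists and of both F-box groups, with 1 point a gene, red bars for list medians, a blue dotted line for the median of all genes (0.037) and dashed lines at 2-fold. The points past 2-fold lie in the F-box groups and among the substrates.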

How the data were processed

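RNA was profiled in oocytes of secondary follicles from *Mfn1*-/- (3 libraries) and WT (4 libraries) mice, with 5 oocytes per library. Per the labels and the paper's methods, the authors amplified cDNA by Smart-Seq2, prepared Nextera XT libraries and sequenced paired 75-base reads. The submitters' processing notes name cutadapt, FastQC, STAR and DESeq with GRCm38; versions and counting settings are not given in the sources used here. The deposited signal values are the authors' mean normalized counts per genotype; their scale is not named. The deposited total column matched sums over 3 *Mfn1*-/- and 4 WT libraries to within 1% for 100% of genes. The paper's methods give n = 3 per genotype, whereas the labels list 4 WT libraries; whether each library came from a separate animal is not stated. The authors' columns of ratio, fold change, p-value and FDR were not used.

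From the means, log2 ratios with a pseudocount of 0.1 were computed for all 22877 genes (Python 3.11.15, pandas 2.3.3, numpy 2.4.6, scipy 1.17.1, matplotlib 3.10.9). The arithmetic was checked on simulated means without noise, which cannot show how the 2-fold line fares on real means. Without values of single libraries there was no test, SD or interval. All 76 members were matched to GENCODE M21, coding sequences and promoters were aligned with MAFFT 7.526, and promoters came from RefSeq (GRCm38.p6). Named were every tandem gene, other F-box genes past 2-fold, the 3 nearest that line on each side and in each direction, the 6 with the highest mean, 10 members taken whatever their values (*Fbxo5*, *Fbxo43*, *Fbxw7*, *Fbxw11*, *Fbxo30*, *Fbxo34*, *Fbxl4*, *Fbxl5*, *Fbxo7* and *Fbxl21*), *Mfn1*, and from each list the members past 2-fold and the 2 with the highest mean; other list members and overlapping genes were named after their values were seen. Of the members 1 is counted but not reported here by name. Members and lists were chosen with earlier results of these data known. Alternatives were other pseudocounts, filters, scalings and fold limits.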

Additional observations from a re-analysis of the deposited data

How the results depend on the processing

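The count of tandem genes past 2-fold was 2 of 16 with a pseudocount of 0.01 (17.1% of all genes) or none (21.1%). It was also 2 with a mean of at least 0.1 (11.5%) or 1 (8.74%), and under both rescalings (7.58% and 7.44%). At a limit of 1.5-fold it was again 2 (19.3%). The share of 12.5% thus lay below the background in some settings and above it in others. The count was 1 with a pseudocount of 1 (1.40%, *Fbxw25* at -0.85) and 0 at a limit of 3-fold (2.12%). The tandem median log2 ratio changed sign when the median of expressed genes was subtracted (-0.042) and when both columns were scaled to the same sum (-0.014). The count for the other F-box genes was 7 with a pseudocount of 0.01 (17.1% of all genes), 9 with none (21.1%), 2 with a pseudocount of 1 (1.40%), 14 at 1.5-fold (19.3%) and 1 at 3-fold (2.12%). It was 2 of 53 (7.64% of all genes) without genes overlapped over more than 10% of their transcript, a choice made after seeing the data. It was 6, with *Fbxo5* and *Fbxo17* added, with the median of expressed genes subtracted (7.58%) and with columns of the same sum (7.44%). Their median was -0.18 with a mean of at least 1 and -0.098 with the median of expressed genes subtracted. Of 190 values of 38 named genes under 5 of these alternatives, 170 kept their side of the 2-fold line. With a pseudocount of 1, *Mfn1* was at -0.61. No paired analysis was possible because the values used are 1 mean per genotype; for the same reason no library could be left out. The family with *Fbxw12* added was not run, since that symbol has no row in the table used here. Genotype means without depth limit every ratio of a low gene.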

Other observations

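Of 9 further GENCODE genes inside the chromosome 9 cluster, 3 had a row in the table. *Gm42494* had a mean of 4.33 in *Mfn1*-/- and 4.06 in WT oocytes, *Gm42756* had 0.564 and 0.56, and *Gm42493* had 0.0609 and 0.026, so none came near the tandem genes of high mean that surround them.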
